A study of Caenorhabditis elegans with 10 samples.

Results

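Of the 4429 nuclear sites at which chromatin immunoprecipitation followed by sequencing (ChIP-seq) recovered the transcription factor CEH-60 with the mIgG1 antibody, 1069 (24.1%, Wilson 95% interval 22.9 to 25.4) were selected here because 2 other CEH-60 libraries made with long crosslinking also had an interval there and no library made with short crosslinking did. A site is an interval of the deposited mIgG1 peak list. It was kept where it overlapped, by 1 bp or more, an interval of the CEH-60 3F10 list of strain DLS395, replicate 1, and one of the CEH-60 3F10 list of strain DLS396. It was dropped where it overlapped an interval of any of the 4 short-crosslink lists, which are CEH-60 in DLS395 (replicate 2), CEH-60 in DLS435, PQM-1 in OP201 and PQM-1 in DLS422. The 1069 sites are called long-crosslink-only CEH-60 sites below. They were chosen on measured intervals of 7 lists, so their presence in 3 of them and absence from 4 are not findings, and their folds in the CEH-60 lists are given as a description.

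CEH-60 belongs to the PBX family of homeodomain proteins and UNC-62 to the MEIS family. Proteins of these families bind DNA as partners, and in adult C. elegans CEH-60 and UNC-62 are known for the control of yolk protein and lipid genes in the intestine. PQM-1, a zinc finger factor found in intestinal nuclei, is known for stress and metabolic genes. Formaldehyde joins proteins to DNA and to each other, so a longer treatment can also hold contacts that are brief or indirect.

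The series has 10 samples of whole day 1 adults, of which 8 are immunoprecipitations with 1 peak list each and 2 are inputs that were not analysed here. DLS395 has the genotype ceh-60(rhd116), and CEH-60 was recovered from it with the anti-HA antibodies 3F10 and mIgG1. DLS396 is ceh-60(rhd116); gaIs285, and gave a CEH-60 library with 3F10 and an UNC-62 library with the anti-GFP antibody 3E6. DLS435 is pqm-1(ok485); ceh-60(rhd116), OP201 is unc-119(tm4063); wgIs201, and DLS422 is ceh-60(ok1485); wgIs201. PQM-1 was recovered from OP201 and DLS422 with the anti-FLAG antibody M2. The long-crosslink libraries (DLS395 3F10 replicate 1, DLS395 mIgG1 and both from DLS396) were fixed with 2% formaldehyde over 30 min from animals grown at 20 °C, sheared in a Bioruptor and made with the KAPA kit. The short-crosslink libraries were fixed with 1% formaldehyde over 5 min, sheared in a Covaris instrument and made with the ThruPLEX kit, without a stated growth temperature. Fixation, shearing, kit and, for all but CEH-60 in DLS395, strain or target changed together, so they cannot be told apart. CEH-60 3F10 in DLS395 had 1 library by each protocol and every other group had 1 library, so no p-value is given, and intervals on shares cover counting error only. Each tagged factor was recovered from whole animals, so the cell type of a site is not given by these data.

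The lists held 4431 peaks for mIgG1, 9010 for replicate 1, 8993 for the DLS396 3F10 library and 2053 for UNC-62. The short-crosslink lists held 2048 to 6001 peaks, and all 8 lists together held 40986. Read depth is unknown, and the median fold was 4.24 to 5.79 in the long-crosslink lists against 2.28 to 2.38 in the short-crosslink ones. A fold is the authors' ratio of the signal at a peak summit to its local background. Apart from these medians of whole lists, a fold is compared with other folds of the same list alone. A site that no short-crosslink list holds can therefore be one that those lists did not reach, which was not tested.

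Nearly all mIgG1 sites were shared by the other 2 long-crosslink CEH-60 lists, which are longer. Of the 4429 mIgG1 sites, 4331 had an interval in both other long-crosslink CEH-60 lists. The long-crosslink-only sites were 24.7% of these (23.4 to 26). The other 3262 had a short-crosslink interval, which was of CEH-60 only at 392 sites, of PQM-1 only at 590 and of both at 2280. By list, intervals of PQM-1 in OP201 lay over 65.3% of the 4331 sites, of CEH-60 replicate 2 over 60.7%, of PQM-1 in DLS422 over 53.2% and of CEH-60 in DLS435 over 38.6%.

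The long-crosslink-only sites were spread through the mIgG1 list except at its top. They made up 25.1% of the decile of lowest fold (111 of 443 sites, fold 1.89 to 3.00), and 24.2% to 33.2% of the next 6 deciles. Above that the share fell to 20.3%, 14.9% and, in the top decile, 4.29% (19 of 443, fold 8.62 to 22.8). Their median fold was 4.04 in the mIgG1 list (range 2.12 to 12.9), against 4.54 at the shared sites with a short-crosslink interval. In replicate 1 the median was 5.06 (1.97 to 14.4) against 8.40, and in DLS396 it was 6.45 (2.27 to 30.0) against 11.5. Outside the mIgG1 list, the fold of a site is that of the interval overlapping it most, which neighbouring sites can share. Such intervals were narrower at the long-crosslink-only sites, with median widths of 341 bp against 639 bp in replicate 1 and 339 bp against 623 bp in DLS396. The part of shared intervals in these medians was not tested. Within each list the median long-crosslink-only site stood at percentile 43.2 of mIgG1, 57.2 of replicate 1 and 55.9 of DLS396. They were thus near the middle of each whole list, and their folds overlapped widely with those of the other classes. Among the 4 classes of shared sites theirs was the lowest median in replicate 1 and in DLS396, where the PQM-1-only class had 6.31 and 8.50. In the mIgG1 list the PQM-1-only class had the lowest median, 3.49, and the CEH-60-only class the highest, 7.20.

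**Figure D1:**
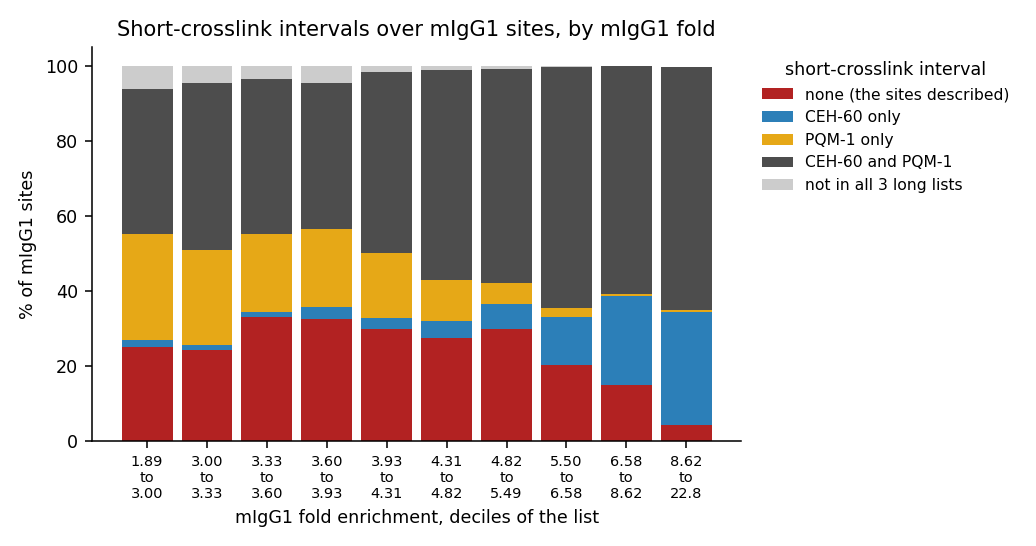
Share of mIgG1 sites (y axis, %) by the short-crosslink intervals over them, for deciles of the mIgG1 list in order of fold (x axis, the fold range of each decile). The red bars, the long-crosslink-only sites, fall from 24.2% to 33.2% in the 7 lower deciles to 4.29% in the top one, where the bars with a CEH-60 interval take their place.

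**Figure D2:**
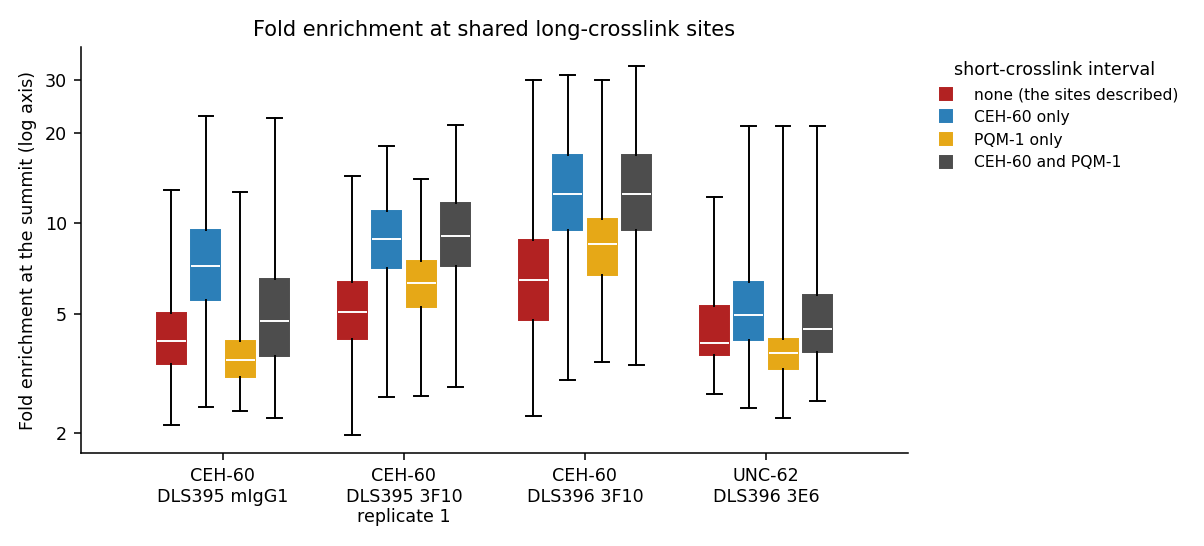
Fold (y axis, log scale) of the interval of each long-crosslink list (x axis) that overlaps a shared long-crosslink site most, by short-crosslink class. The fold is that at the summit of the interval, which neighbouring sites can share. Boxes span the quartiles, white lines are medians and whiskers the full range. The red medians lie below those of the CEH-60-only class and of the class with both in the 3 CEH-60 lists; in mIgG1 the red box (3.40 to 5.02) overlaps that of the class with both (3.62 to 6.51), and the whiskers of all classes overlap.

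In the 3 CEH-60 libraries the summits of most of these sites lay close together. The overlap rule favours this, so the spacing is given as a description. The replicate 1 summit lay a median of 19 bp from the mIgG1 summit (0 to 988) and within 50 bp at 87.4% of the 1069 sites. The DLS396 summit lay a median of 18 bp away (0 to 1809) and within 50 bp at 86.2%. At the shared sites with a short-crosslink interval the shares within 50 bp were 78.8% and 78.9%, and in the CEH-60-only class they were 93.1% and 91.3%. The mIgG1 intervals had a median width of 239 bp (175 to 3612), against 291 bp at those other sites.

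The distance from the sites to the nearest short-crosslink interval varied widely, and overlapping sites had been dropped by the rule. The median gap was 6333 bp, with a range of 8 to 175948 bp, and 173 sites had a short-crosslink interval within 1000 bp. A PQM-1 interval lay within 1000 bp of 160 sites (15%) and a short-crosslink CEH-60 interval within 1000 bp of 86 (8.04%). The overlap rule was applied to mIgG1 intervals, and the wider replicate 1 interval of 46 sites (4.30%) and the DLS396 interval of 53 (4.96%) did themselves reach a short-crosslink interval. The sites closest to being dropped lay in par-1, a polarity kinase gene (V 14135657 to 14135836, 8 bp from an interval), in crh-1, the CREB gene (III 11688887 to 11689140, 11 bp), and at X 13539628 to 13539887 (19 bp). The sites dropped by the smallest overlaps, of 5, 27 and 30 bp, were III 13068431 to 13068716, X 11104155 to 11104363 in W02H3.1 and II 11423372 to 11423700 beside C05D12.2. Their mIgG1 folds of 3.40, 3.05 and 4.69 were like the 2.72, 3.49 and 4.69 of the 3 sites just inside.

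UNC-62 was the one immunoprecipitated library that the choice of sites did not use. An UNC-62 interval lay over 117 of the 1069 long-crosslink-only sites (10.9%, 9.21 to 13), against 1933 of all 4429 mIgG1 sites (43.6%). It lay over 37.0% of the CEH-60-only class (145 of 392, 32.4 to 41.9), over 28% of the PQM-1-only class (165 of 590, 24.5 to 31.7) and over 65.2% of the class with both (1487 of 2280, 63.2 to 67.1). The interval of the long-crosslink-only sites did not overlap those of these 3 classes. It did overlap that of the 98 mIgG1 sites that the other long-crosslink lists did not share (19 of 98, 12.8 to 28.3). The UNC-62 library was long-crosslinked and came from DLS396, the strain of a CEH-60 library that every site had to be in, so it shares its protocol with the lists that hold these sites.

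The lower share held across the mIgG1 folds. From the lowest to the highest quartile of mIgG1 fold, UNC-62 lay over 5.07%, 7.54%, 14.7% and 25% of the long-crosslink-only sites. The shared sites with any short-crosslink interval had 25.6%, 38.8%, 65.8% and 81.3%. In the top quartile UNC-62 lay over 32 of 128 long-crosslink-only sites and over 674 of 701 sites with both (96.1%). The CEH-60-only class lay between them in that quartile, at 113 of 269 (36.3 to 48), and in quartiles 2 and 3 its intervals (9.51 to 37.3 and 18.6 to 38.1) overlapped those of the long-crosslink-only sites (5.19 to 10.8 and 11.1 to 19.1). The share at the long-crosslink-only sites and at the pooled other shared sites was higher in each higher quartile.

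By the DLS396 fold the picture differed at its lower end. In the top DLS396 quartile UNC-62 lay over 32.7% of long-crosslink-only sites (71 of 217) and 72.7% of the others (1611 of 2216), and in the third quartile over 5.84% (24 of 411) and 20.5% (185 of 904). In the second quartile it lay over 12 of 315 long-crosslink-only sites (3.81%, 2.19 to 6.54) and over 1 of 133 others (0.752%, 0.133 to 4.14). In the lowest it lay over 10 of 126 (7.94%) and 0 of 9, which allows a share of up to 29.9% by the Wilson interval. In the third quartile the CEH-60-only class, at 4 of 79 (5.06%), was like the long-crosslink-only sites, and the higher share of the others came from the classes with PQM-1. A share below that of every other class was thus seen in the top DLS396 quartile alone, and few other sites fell in the lower 2.

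**Figure D3:**
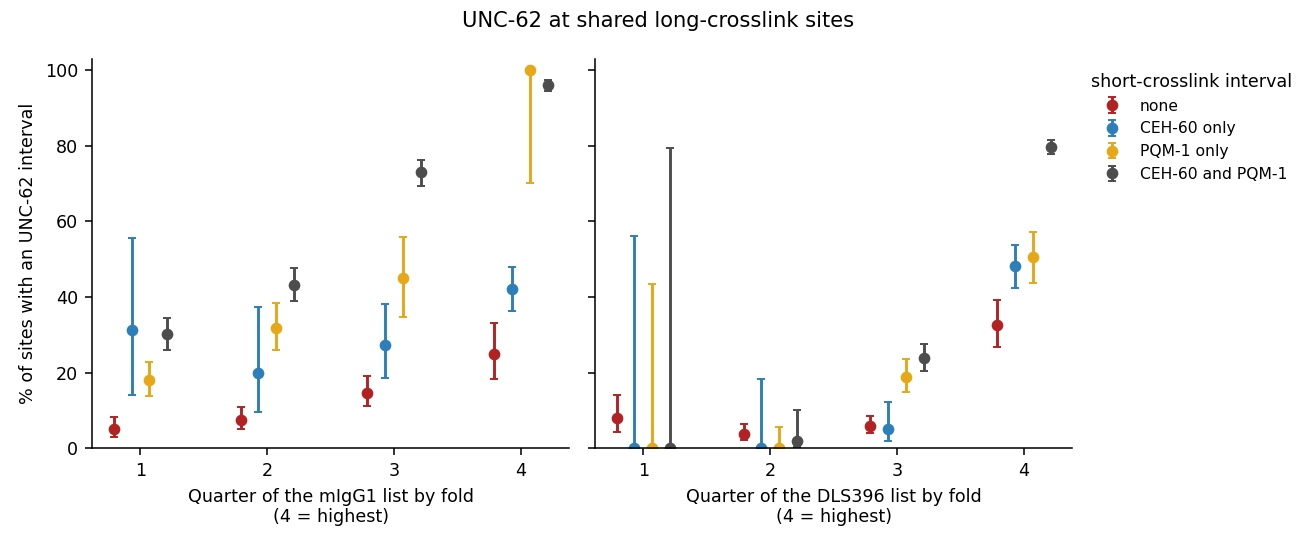
Share of shared long-crosslink sites with an UNC-62 interval (y axis, %) by quartile of fold in the mIgG1 list (left) and in the DLS396 list (right), for the 4 short-crosslink classes; bars are Wilson 95% intervals. The red points, the long-crosslink-only sites, lie lowest in every mIgG1 quartile and in the top DLS396 quartile, and at 7.94% in the lowest DLS396 quartile, where the other classes together hold 9 sites.

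The long-crosslink-only sites with an UNC-62 interval had higher CEH-60 folds than those without. Their median fold was 4.94 against 3.93 in mIgG1, 6.66 against 4.93 in replicate 1 and 10.9 against 6.24 in DLS396. The UNC-62 summit lay a median of 17 bp from the mIgG1 summit. The 117 UNC-62 intervals were 5.70% of the 2051 nuclear ones, and their median fold of 3.99 (2.70 to 12.2) had a median rank of 1213 there. Of these, 27 (23.1%) stood in the top quartile of the UNC-62 list, so sites of high UNC-62 fold were among them. Counting UNC-62 intervals within 500 bp raised the share of long-crosslink-only sites to 12.9%, against 58.5% of the other shared sites.

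Among the long-crosslink-only sites, those inside genes had the lowest UNC-62 share. It lay over 12.9% of the long-crosslink-only sites at a gene end (54 of 419), 6.59% of those inside a gene away from its ends (27 of 410, 4.56 to 9.41) and 15% of the rest (36 of 240, 11 to 20.1). The sites with a short-crosslink interval had 53.2%, 55.9% and 58.5% in the same positions. On X the share was 11.6% and on the autosomes 10.8%.

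Position relative to protein-coding genes was not part of the choice either. A site was called at a gene end where its mIgG1 summit was at most 1000 bp outside or 200 bp inside an end of a protein-coding gene, 5′ or 3′, since strand was not used here. This held for 419 long-crosslink-only sites (39.2%, 36.3 to 42.2), against 47.5% of all mIgG1 sites and 50.8% of the shared sites with a short-crosslink interval (1658 of 3262). A further 410 (38.4%, 35.5 to 41.3) lay inside a gene away from its ends, against 27.3% of those others (25.8 to 28.8), and 240 (22.5%) lay in neither place, against 21.9%. Between protein-coding genes, whether near an end or not, lay 488 of the 1069 (45.7%, 42.7 to 48.6), against 56.7% of all mIgG1 sites. The class with PQM-1 only had 64.6% between genes and that with both 62.7%. The CEH-60-only class had 41.1% (36.3 to 46.0), an interval that overlapped that of the long-crosslink-only sites. Over all folds, the intervals of both classes without PQM-1 lay below those of both classes with it, and the sites without PQM-1 were more evenly split between genes and the space between them. In the top quartile of DLS396 fold the interval of the long-crosslink-only sites (46.4 to 59.5) overlapped that of the class with both (59.2 to 63.8). In the third quartile these lay apart (41.0 to 50.6 and 61.9 to 70.0).

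**Figure D4:**
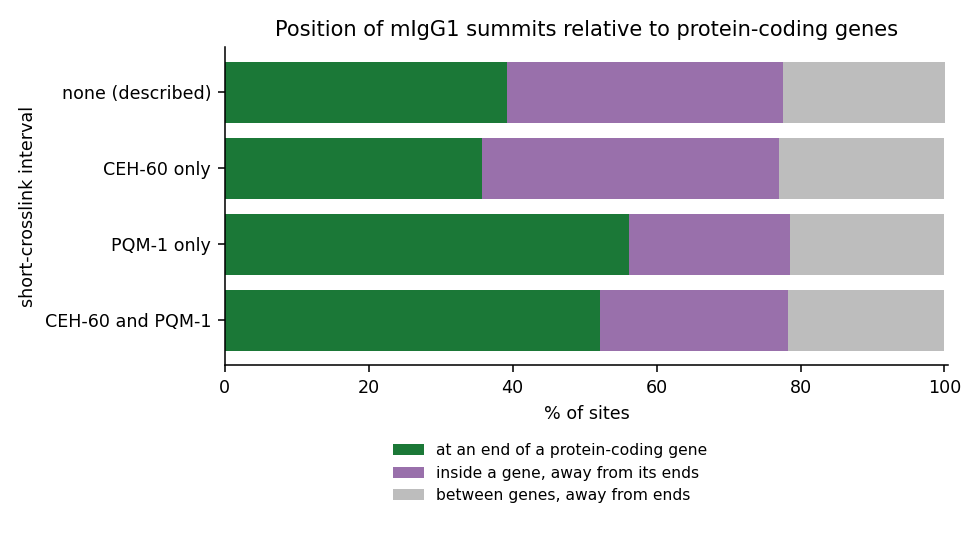
Share of shared long-crosslink sites (x axis, %) by the place of the mIgG1 summit relative to protein-coding genes, for the 4 short-crosslink classes (y axis). The classes without a PQM-1 interval, at 39.2% and 35.7%, have a smaller green share at gene ends than those with one, at 56.1% and 52.1%.

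By chromosome the sites fell as 224 on X, 204 on V, 177 on I, 169 on IV, 163 on II and 132 on III. X held 21% of them (18.6 to 23.5), against 25.3% of all mIgG1 sites, 29.7% of the class with both and 17.3% of the PQM-1-only class. Chromosome I held 16.6% (14.4 to 18.9), against 11% (360 of 3262) of the shared sites with a short-crosslink interval, and against 13.8% of the CEH-60-only and 15.1% of the PQM-1-only class, whose intervals overlapped that of the long-crosslink-only sites. The middle part of the chromosomes, the central one of 3 equal stretches, held 37.5% (34.7 to 40.5) against 48.5% (46.4 to 50.5) of the class with both, 38.3% of the CEH-60-only and 39.5% of the PQM-1-only class. Most sites stood alone, since 908 had no other within 5000 bp and 161 formed 77 clusters. The largest cluster had 4 sites at II 13981908 to 13986847, by sre-47, a chemoreceptor gene, and Y39G8B.5, Y39G8B.9 and Y39G8B.10. Their mIgG1 folds were 4.04, 5.91, 5.46 and 4.85, and UNC-62 lay over 2 of them. The last 2 had the same folds in replicate 1 (4.45) and in DLS396 (5.28), and so may not be independent. Clusters of 3 lay at III 8402798 to 8410965, by lap-1, an aminopeptidase gene, and ubxn-4, and at II 3303665 to 3310173.

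The sites of highest fold show how the libraries compared at single loci. Of the 15 with the highest mIgG1 fold, 7 had an UNC-62 interval, 4 lay at a gene end, 6 inside a gene away from its ends and 5 in neither place. The highest lay 132 bp from W08E3.4 (I 13337000 to 13337506), with folds of 12.9 in mIgG1 (rank 127 of 4429), 10.1 in replicate 1, 16.6 in DLS396 and 12.2 in the UNC-62 list, where it ranked 34. It had the highest UNC-62 fold of all 1069 sites, and the nearest short-crosslink interval was 22739 bp away. The next, inside glo-1, the Rab GTPase of the intestine's lysosome-related gut granules, and R07B1.9 (X 9879893 to 9880232), had 10.7, 14.3 and 25.4, with 7.92 for UNC-62. Inside hot-9 (IV 5043790 to 5044125) the folds were 10.6, 12.6 and 21.1, with 5.24 for UNC-62. These 3 sites were thus in the top quartile of the 3 CEH-60 lists, and the first 2 also in that of UNC-62, where hot-9 ranked 584 of 2051.

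Sites of similar mIgG1 fold had no UNC-62 interval. The site 597 bp from W03D8.9 (I 2786515 to 2786870) had folds of 10.5 in mIgG1, 9.99 in replicate 1 and 12.7 in DLS396. The site inside sly-1, a gene of vesicle transport (III 10509995 to 10510313), had 10.4, 9.54 and 9.86. In dve-1, a homeodomain gene of the mitochondrial stress response (X 433249 to 433673), and in gcy-6, a receptor guanylyl cyclase gene of a taste neuron (V 10310015 to 10310436), mIgG1 folds were 8.94 and 8.83. By contrast, an UNC-62 interval of fold 10.9, rank 58, lay over a site 5764 bp from the nearest gene, F53B1.9 (X 2137463 to 2137775), with CEH-60 folds of 10.3, 14.4 and 26.7. High CEH-60 fold and UNC-62 thus came together at some of these sites and apart at others. Sites inside genes were picked as the highest of their kind after values were seen.

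Among the 12 highest sites at a gene end, 6 had an UNC-62 interval. At adt-1, an ADAMTS metalloprotease gene (X 12688940 to 12689246), the folds were 9.07, 10.8 and 19.0, with 3.15 for UNC-62. Between ruvb-2, a RuvB-like ATPase gene, and T22D1.18 (IV 6919146 to 6919695) they were 8.97, 8.23 and 15.3 with no UNC-62 interval, and a short-crosslink interval lay 377 bp away. At hzl-1 (V 12840149 to 12840487) they were 8.74, 11.2 and 20.1, with 6.08 for UNC-62. At ears-1, a glutamyl-tRNA synthetase gene, and ZC434.3 (I 10336059 to 10336432) they were 8.06, 9.24 and 18.6, with 5.71 for UNC-62. The others were W06D11.2, C03B1.14, K08D8.11, ugt-5, str-233 and Y47D9A.4, with mIgG1 folds of 7.82 to 8.62.

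Ranked by UNC-62 fold, the sites at gene ends included some with low folds in the other CEH-60 lists. At lars-1, a leucyl-tRNA synthetase gene (III 4186969 to 4187232), UNC-62 had 7.29 and CEH-60 6.50, 8.11 and 16.6. At mut-16, a gene of small RNA amplification (I 10079533 to 10079900), UNC-62 had 5.83 and CEH-60 7.15 in mIgG1, 9.34 in replicate 1 and 16.4 in DLS396. At Y80D4G.2 (III 7594686 to 7595132) UNC-62 had 6.28, rank 328 of 2051, and mIgG1 5.66, while replicate 1 had 2.90 and DLS396 3.72. At fbxa-28, an F-box gene, 2 sites (III 1299656 to 1299947 and III 1300156 to 1300439) had UNC-62 folds of 5.74 and 6.27, and DLS396 folds of 3.99 and 4.39. At Y45F10B.13 (IV 13549350 to 13549655) UNC-62 had 5.45 and DLS396 3.93. These last 4 sites had UNC-62 ranks of 328 to 529, and their folds were below the median of each 3F10 list, 4.52 in replicate 1 and 5.79 in DLS396.

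The gene end rule tied the sites to 550 protein-coding genes, 2.75% of 19971, while all mIgG1 sites bound 2557 genes (12.8%). The 550 were 21.5% of the mIgG1-bound genes, and 489 of them (88.9%) were bound in the mIgG1 list at long-crosslink-only sites alone. Elsewhere at their ends, 115 of the 550 (20.9%) were also bound by a short-crosslink list, and 105 (19.1%) by a PQM-1 list. The share of all protein-coding genes that those lists bound is not given here. These counts are therefore a description and do not show more or less binding than at other genes. Of the sites, 290 had 1 bound gene and 129 had 2 or more, so a site and a gene do not pair one to one. Summits lay inside 556 genes. With 3 summits each, the genes with most were ajm-1, for the apical junctions of epithelia, egl-4, a cGMP-dependent kinase gene, gld-2, a poly(A) polymerase gene of the germline, rin-1 and Y5H2A.4.

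The yolk protein genes, for which CEH-60 is known, were not among those bound at these sites. Of 6 vitellogenins, which encode yolk proteins, all 6 were bound in the mIgG1 list and 0 at a long-crosslink-only site, and ceh-60, unc-62 and pqm-1 were likewise bound only at other mIgG1 sites. Among 18 intestine markers, 11 were bound in the mIgG1 list and 0 at these sites. The counts were 0 of 13 mIgG1-bound genes that make or desaturate fatty acids, 0 of 10 that oxidize them, 0 of 16 innate immune effectors, 0 of 7 innate immune regulators, 0 of 10 stress and longevity transcription factors and 0 of 8 regulators of yolk and its uptake, while regulators of fat metabolism had 1 of 8. Over all mIgG1-bound genes the share at long-crosslink-only sites was 21.5%. A gene of the intestine, vitellogenin, fatty acid or immune effector lists stood at 0 of the 1069 sites (up to 0.358%) and at 63 of the 3262 shared sites with a short-crosslink interval (1.93%, 1.51 to 2.46). By class such a gene stood at 2 of 392 CEH-60-only sites (0.510%), 12 of 590 PQM-1-only sites (2.03%) and 49 of 2280 with both (2.15%). The interval of the CEH-60-only class overlapped that of the long-crosslink-only sites, and those of both classes with PQM-1 lay above it. The low share was thus not particular to the long-crosslink-only sites. In each quartile of mIgG1 fold the count was 0 at the long-crosslink-only sites and 13 to 18 at the shared sites with a short-crosslink interval. In the top quartile this was 0 of 128 against 18 of 979. The 2 intervals overlapped in quartiles 1, 3 and 4 and lay apart in quartile 2 alone. From the lowest to the highest quartile the CEH-60-only class had 1 of 16, 1 of 30, 0 of 77 and 0 of 269.

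Over all 20 named lists, with 319 distinct genes, 102 genes were bound in the mIgG1 list and 5 of these at long-crosslink-only sites. The 5 were unc-54, the body wall muscle myosin heavy chain (I 14855726 to 14855947), oma-2, a zinc finger gene of oocyte maturation (V 8031083 to 8031331), nhr-13, a nuclear hormone receptor gene of fat metabolism (V 2192218 to 2192403), lmp-2, a lysosomal membrane protein gene (X 1128394 to 1128601), and atg-2, an autophagy gene (X 6808787 to 6808966). Their mIgG1 folds were 2.94, 3.15, 3.92, 2.96 and 3.54, below the median of the sites, and none had an UNC-62 interval. The gene unc-54 is the 1 muscle marker and oma-2 the 1 germline marker among them. Neuron markers had 0 bound genes of 16 in the whole mIgG1 list.

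Counting a summit anywhere inside a gene brought in further genes of these lists. They made 24 list entries in all, where a gene on several lists, such as daf-2, counts in each. Those with a summit inside but none at an end included daf-2, the insulin receptor gene, rme-2, the yolk receptor gene of oocytes, tra-1, of sex determination, sbp-1, the SREBP gene of lipid synthesis, glp-1, the Notch receptor gene of the germline, and dve-1. By that count 0 of 12 intestine markers, 0 of 14 genes of fatty acid synthesis, 0 of 16 immune effectors and 0 of 6 vitellogenins were at long-crosslink-only sites. Other lists that had 0 by the gene end rule did not stay there, with 3 of 12 regulators of yolk and its uptake, 3 of 14 stress and longevity factors, 1 of 13 genes of fatty acid oxidation and 1 of 12 immune regulators. The share over all genes was then 29.5% (1029 of 3490).

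Among 32 families drawn by symbol, the sr chemoreceptors, membrane receptors of sensory neurons, had the most genes at these sites. Of 66 chemoreceptor genes bound in the mIgG1 list, 28 (42.4%) were bound at a long-crosslink-only site, beside 21.5% of all bound genes. Over all 1243 chemoreceptor genes that was 2.25%, near the 2.75% of all protein-coding genes. The srh family had 8 of its 16 mIgG1-bound genes there, srz 4 of 5, srt 3 of 4 and srw 3 of 6. The str family had 1 of 7, srv 1 of 4, srd and srj 1 of 3 each, srg 0 of 3, and srr and srsx 0 of 2 each. By site, 25 long-crosslink-only sites (2.34%, 1.59 to 3.43) and 40 of the other 3262 (1.23%, 0.902 to 1.67) bound a chemoreceptor gene, and these intervals overlapped. By class the shares were 0.765% for CEH-60 only (0.261 to 2.23), 0.678% for PQM-1 only (0.264 to 1.73) and 1.45% for both (1.03 to 2.03). The highest were str-233 (V 16009745 to 16010033), with folds of 7.85 in mIgG1, 9.79 in replicate 1 and 11.3 in DLS396, and srh-167 (V 16333010 to 16333398), with 6.87, 7.67 and 9.94, and neither had an UNC-62 interval. The gene sre-47, in the cluster on II, had 5.91, 4.09 and 5.50, with 3.99 for UNC-62. Chemoreceptor genes lie in tandem arrays of similar copies, and the labels do not say how reads with several matches were handled.

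Other families were nearer to the 21.5% of all bound genes or had few genes. The counts were 6 of 42 nuclear hormone receptors, 5 of 34 C-type lectins, 4 of 37 F-box genes, 5 of 29 glucuronosyltransferases and 1 of 16 cytochromes P450. Short-chain dehydrogenases had 4 of 12, glutathione S-transferases 3 of 12, ceh homeobox genes 3 of 9 and collagens 3 of 8. The glucuronosyltransferase gene ugt-5 (V 12793691 to 12794033) had folds of 8.07, 9.10 and 12.3 without UNC-62, and ugt-30 (V 15125126 to 15125340) 5.34, 7.19 and 12.8 with 4.98 for UNC-62. The glutathione S-transferase gene gst-29 (II 15169970 to 15170270) had 5.89, 9.38 and 10.7 with 4.35 for UNC-62. The nuclear hormone receptor gene nhr-32 (X 13251514 to 13251813) had 5.64, 8.27 and 11.4 without UNC-62, and the homeobox gene ceh-34 (V 5315178 to 5315440) 4.94, 5.79 and 6.48. Insulin-like peptides had 0 of 5 and bZIP genes 0 of 8.

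**Figure D5:**
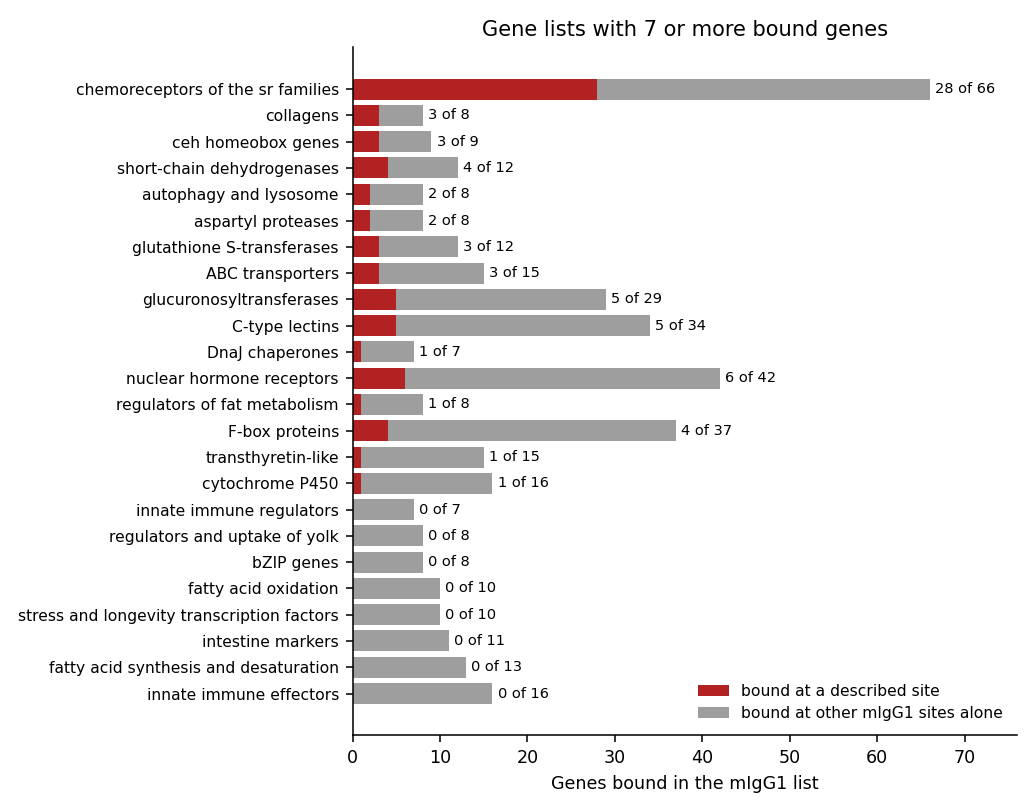
Number of genes bound in the mIgG1 list (x axis, gene end rule) for the gene lists and families with 7 or more such genes (y axis), with the part bound at long-crosslink-only sites in red and both counts printed. Chemoreceptors head the order with 28 of 66, and the lists of intestine, fatty acid and immune genes have no red part.

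Genes for structural RNAs lay near a small part of the sites. A tRNA gene lay within 200 bp of 18 mIgG1 summits among the 1069 (1.68%, 1.07 to 2.65) and of 13 among the 3262 shared sites with a short-crosslink interval (0.399%, 0.233 to 0.681). Split by class, the tRNA share was 0.510% for CEH-60 only (2 of 392), 0.339% for PQM-1 only and 0.395% for both (9 of 2280). The intervals of CEH-60 only and PQM-1 only reached up to 1.84 and 1.23, and so overlapped that of the long-crosslink-only sites. The interval of the class with both (0.208 to 0.749) lay below it. Of the 18 long-crosslink-only sites, 11 were on X, which also holds much of the worm's tRNA gene set, and 1 had an UNC-62 interval. The site of highest DLS396 fold among them, in C06G1.1 (X 16634781 to 16635014), had 3.99 in mIgG1, 9.85 in replicate 1 and 14.1 in DLS396. In ajm-1, 2 neighbouring sites by tRNA genes (X 9091047 to 9091313 and X 9091382 to 9091593) fell in a single interval of each 3F10 list, and so are not independent. Genes of rRNA lay by 3 of the sites and by 0 of the 3262. Pseudogenes lay by 26 (2.43%) and 42 (1.29%), and the ncRNA class by 8.61% and 8.31%. By class, pseudogenes lay by 3.32% of the CEH-60-only sites (13 of 392, 1.95 to 5.59), 0.847% of the PQM-1-only sites and 1.05% of those with both. The pseudogene share was thus not particular to the long-crosslink-only sites.

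The 5 widest sites all had UNC-62 intervals. The widest, of 3612 bp, lay at the rRNA repeat by rrn-3.1 (I 15064024 to 15067635), with folds of 7.65 in mIgG1, 4.63 in replicate 1, 7.29 in DLS396 and 7.33 for UNC-62. The next 4, of 832 to 1779 bp, were all on V, and UNC-62 lay over each of them, with folds of 4.13 to 8.02. At 2 further rRNA sites, by rrn-4.6 (V 17122034 to 17122347) and rrn-4.7 (V 17122931 to 17123112), UNC-62 had 4.28 and 3.84 and DLS396 4.43 and 3.78. The 10 sites of lowest DLS396 fold among those with UNC-62 had DLS396 folds of 2.31 to 3.78, and 8 of them bound no gene at an end. Genes for rRNA are repeated in the genome, and the part of repeats in these values was not tested. At the other end of the scale, the lowest mIgG1 fold was at ire-1, the sensor of unfolded proteins in the endoplasmic reticulum (II 8124951 to 8125152), with 2.12 in mIgG1, 3.82 in replicate 1 and 4.06 in DLS396.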

How the data were processed

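Peak lists of 8 immunoprecipitated samples of day 1 adults were used as deposited, and groups were taken from the labels. Per the submitters' processing notes, the authors used Bowtie2, SAMtools, MACS2 and deepTools, without versions. Each list belongs to 1 sample. The genome build, the control of each call, duplicate removal and the handling of multiply mapping reads are not stated. The deposited lists give a score, which was not used, a fold, which is a linear ratio of summit signal to local background, and values of −log10 for p and q at the summit. No −log10 q was below 2.00. Read depth is unknown.

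Overlaps, classes, quartiles of fold and Wilson 95% intervals were computed with scipy 1.17.1, pandas 2.3.3 and numpy 2.4.6 under Python 3.11.15, figures with matplotlib 3.10.9, and overlap, gap and gene end steps were tested on simulated data. No test was run, since groups had 1 library. Site coordinates are 1-based and those of the deposited lists. Gene names and neighbours came from a RefSeq table of the assembly WBcel235, without strand or exons, so the 5′ end was not counted apart. The share of mIgG1 summits between genes was 56.7%, and 36.4% to 46.2% when summits were shifted by 500 to 20000 bp. Of 3636 members of 52 gene lists, 3631 were found, and let-7, elt-5, lpd-1, atf-5 and asp-10 were not.

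The sites and gene lists were chosen with earlier results of these data known. Named genes are those of the 12 sites of highest mIgG1 fold and the 10 of highest UNC-62 fold with a gene at an end, up to 4 per gene list, 3 sites on each side of the overlap rule, ceh-60, unc-62, pqm-1 and the vitellogenins, and the 3 longest clusters; some are left out for length. Sites inside genes, by structural RNA genes, or the widest, the lowest and the 15 highest of all were picked after their values were seen. The planned count of motifs and any printed site sequence would need a genome sequence, which was not used here. Alternatives to the overlap, the −log10 q limit, a margin around sites, the anchor list, each list used and the gene end window were tried.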

Additional observations from a re-analysis of the deposited data

How the results depend on the processing

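Of 72 alternative values of 6 main results, 65 stayed within counting error, or within 1.5 times for counts, and 7 moved. The UNC-62 share of the sites was 13.9% without replicate 2 and 14.9% without the OP201 list, and the share between genes was 49.3% without the OP201 list. A gene end window of 500 bp gave 25% of sites at a gene end and 329 genes, and one of 2000 bp gave 57.5% and 939. Leaving out replicate 1 or replicate 2 of CEH-60 in DLS395 gave 1078 to 1351 sites, an UNC-62 share of 11.1% to 13.9%, 20.9% to 21.4% on X, 38.8% to 39.2% at a gene end, 44.6% to 45.8% between genes and 555 to 686 genes. Under every alternative choice of sites the UNC-62 share was 9.71% to 14.9% at long-crosslink-only sites and 53.2% to 57.9% at the other shared sites. Bound entries of the named lists, with a gene on several lists counted in each, numbered 9 without replicate 2, 12 without OP201 and 11 with the 2000 bp window. Bound chemoreceptor genes numbered 16 to 47 by window. With a margin of 1000 bp to any short-crosslink interval 896 sites were left, and 64 of 77 named ones. Counting an UNC-62 interval within 500 bp, or within 100 bp either side of the summit, and counting a summit inside a gene were chosen after seeing the data. No paired analysis was possible because the groups compared share fewer than 2 replicate numbers and no test was run. The short-crosslink lists had lower folds, and the CEH-60 lists among them had fewer peaks than the long-crosslink CEH-60 lists. The PQM-1 lists had more peaks than the mIgG1 list. The lower folds and counts limit what absence from the short-crosslink lists shows, and the cause of the moved values was not tested.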
